A study of Catharus ustulatus with 19 samples.

Results

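This account concerns the 94 genes, 0.802% of the 11727 genes measured, that varied most between Swainson's thrushes of the same group. They were chosen by their measured values: each value was centred on the mean of its group of birds, and the pooled standard deviation (SD) of these deviations, the root of the sum of squares divided by 15, had to exceed 1 log2. Expression had been measured by RNA sequencing of a brain block (hypothalamus with optic chiasma) from 19 captive birds (Catharus ustulatus), kept for over 1 year in captivity at constant conditions apart from a day length changed each week. The groups were non-migratory inland (4 birds), migratory inland (5), non-migratory coastal (6) and migratory coastal (4), and no bird received any other treatment that the labels name; the labels give no ages. Birds were collected in 2011, in August (days 7 and 8) or October (days 3 and 4), from 2.5 to 8.57 hours after lights on. Non-migratory birds were taken in August and migratory birds in October, except migratory inland replicate 1 (August) and non-migratory coastal replicate 6 (October). There were 16 males and 3 females, and the females were non-migratory coastal replicates 5 and 6 and migratory coastal replicate 4.

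The hypothalamus is a set of small, distinct nuclei, many of them marked by the peptide hormone they make, that control feeding, reproduction, body temperature and daily and seasonal timing. It borders the fluid-filled ventricle with its ciliated lining, sits above the pituitary gland, and adjoins the optic chiasma, where the myelinated optic fibres cross. In songbirds it is studied as a seat of the seasonal switch into migratory condition. In bulk tissue, fewer cells of a type and less RNA per cell cannot be told apart.

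Each gene is given as an ENSFALG identifier. Of these, 0 of 11727 were found in the RefSeq gene table of the species (assembly bCatUst1.pri.v2, 19631 genes), so no member could be given a name, a function or a position. For the same reason the marker genes of pituitary, choroid plexus, myelin, retina, hypothalamic peptides, blood and other cells could not be checked, nor could the labelled tissue. Members are described by identifier and by their pattern across birds. Values are on a log scale read as log2, with a median of 28.05, and every fold given rests on that reading. The depth of each library is unknown. Migratory and non-migratory birds, and inland and coastal birds, were separate animals, so each bird is 1 replicate.

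The members' pooled SD ran from 1.00 to 3.00 log2 with a median of 1.25, against a median of 0.18 log2 over all genes. The SD exceeded 1.5 log2 in 28 members and 2 log2 in 13. Between the lowest and the highest bird a member moved by 3.31 to 9.95 log2, with a median of 4.78, or 27.4-fold. These 94 genes held 20.9% of the within-group sum of squares of the whole table. The limit of 1 log2 cut a continuous range: ENSFALG00000003579 (1.00) and ENSFALG00000014298 (1.01) lay just inside it, and ENSFALG00000002025 and ENSFALG00000002255 (both 0.995) just outside.

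Many members were weakly expressed, though not all. Their mean level over the birds had a median of 25.34 log2, against 28.04 for all genes. Of the 1172 genes in the lowest 10% of mean levels 56 were members (4.78%), which is 59.6% of the 94. Another 8 lay in the next 10%, and the remaining members were spread over every level up to the highest 10%, which held 2. The median SD over all genes also fell with level, from 0.39 log2 in the lowest 10% to 0.13 in the highest, so weak genes were more variable in general. The other 38 members, each above 1 log2 by the rule, belong to level ranges whose median SD was 0.12 to 0.28 log2, as the plot of spread against level shows.

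**Figure D1:**
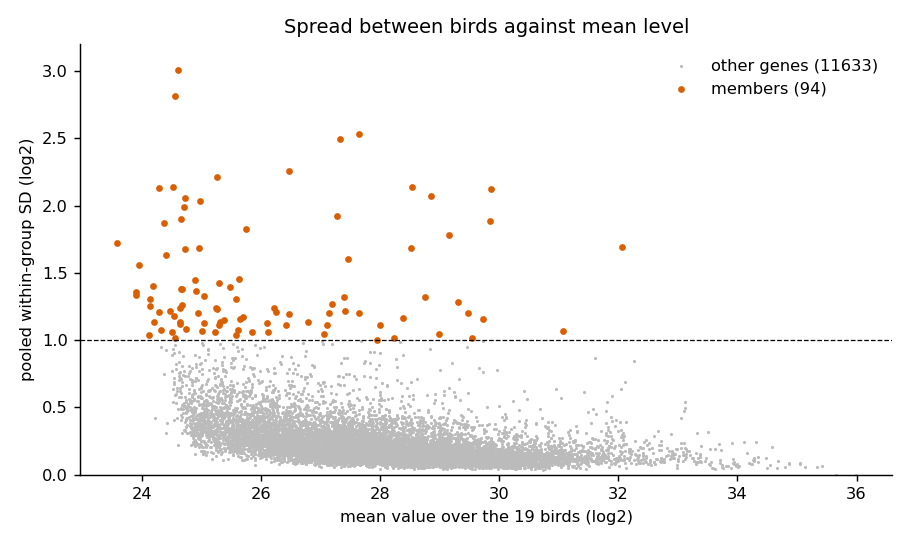
Pooled within-group SD (log2) of each of the 11727 genes against its mean value over the 19 birds (log2); orange points are the 94 members and the dashed line is the limit of 1 log2. Most members lie at the left, at mean levels under 26, but others lie above the limit up to a mean of 32.07.

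ENSFALG00000000737 had the largest SD, 3.00 log2. In the non-migratory inland birds it stood at 28.11, 22.17, 22.48 and 21.89 log2 in replicates 1 to 4. In the migratory inland birds the values were 27.53, 23.20, 23.03, 22.23 and 27.78, and in the migratory coastal birds 23.12, 22.00, 27.77 and 22.00. The 6 non-migratory coastal birds ran from 21.89 to 29.27 with a median of 25.89. Its values fell into a low and a high set. In the high set 7 birds lay between 27.34 and 29.27 log2, and in the low set 11 between 21.89 and 23.20. Non-migratory coastal replicate 4 alone lay between them at 24.44. The low set lay near the bottom of the table. Ranked from the highest value down within each bird, the gene had a median rank of 11713 among 11727 genes. Its SD and the width of its gap therefore depend on where such low values lie. The high birds came from all 4 groups and included 1 of the 3 females, and by date they were 4 of the 5 birds of 7 August, 1 of the 5 of 8 August, 0 of the 4 of 3 October and 2 of the 5 of 4 October. A gap of over 2 log2 with at least 3 birds on each side occurred in 2 of the 11727 genes (0.0171%), both of them members. A gap that wide between birds of the same group itself gives a large SD, so their membership largely follows from the rule. The other gene with such a gap, ENSFALG00000009541, named here after its values were seen, was low in 3 birds (at most 24.64) and high in 16 (at least 27.56).

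ENSFALG00000002901, with an SD of 2.82 log2, varied without such a gap. It stood at 23.05, 26.54, 22.09 and 24.22 log2 in the non-migratory inland birds, at 22.78, 26.36, 28.07, 28.45 and 20.66 in the migratory inland birds, and at 23.82, 22.59, 25.99 and 22.23 in the migratory coastal birds. The non-migratory coastal birds ran from 20.82 to 30.05 with a median of 25.01. Every group held birds at least 3 log2 apart, and the groups overlapped throughout. Its values did not run with those of ENSFALG00000000737: non-migratory coastal replicate 2, the highest bird for that gene, was at 20.82 here. The low values of ENSFALG00000002901 also lay near the bottom of the table, where it had a median rank of 11654 among 11727 genes. Its SD and range therefore depend on where such low values lie.

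ENSFALG00000005970 reached the top of the table in some birds. It stood at 31.68, 35.19, 29.30, 35.46, 30.31 and 28.92 log2 in the non-migratory coastal birds. The non-migratory inland birds lay between 28.79 and 31.54, the migratory inland birds between 26.56 and 31.45, and the migratory coastal birds between 26.11 and 30.01. Among all genes of the same bird, it held rank 3 in non-migratory coastal replicate 4 and rank 5 in replicate 2, but rank 10117 in migratory coastal replicate 3. Its SD was 2.13 log2. Both birds at the top were males taken in August, at 4.6 and 2.5 hours after lights on.

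In 4 members a single bird held over 50% of the sum of squares (4.26% of members, against 1.42% of all genes with any spread). In each of the 4 that bird lay below all others. A single extreme bird itself raises the SD by which members were chosen, so these shares are descriptions only. ENSFALG00000011675 stood at 24.33 log2 in migratory inland replicate 3 and between 28.67 and 30.21 in the other 18 birds, and that bird held 69.9% of its sum of squares. ENSFALG00000004963 stood at 22.35 in migratory inland replicate 5 and between 26.24 and 28.31 elsewhere (66.1%). The other pair, named because the count was small, were ENSFALG00000006888, low in non-migratory coastal replicate 2 (23.29 against at least 26.09), and ENSFALG00000005553, low in non-migratory inland replicate 1 (23.39 against at least 26.16). For most members the spread was shared: the largest share of any bird had a median of 28.5%, close to the 24.6% over all genes.

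The birds contributed unevenly. One male, non-migratory inland replicate 1, taken on 7 August at 6.53 hours, lay farthest from its group mean in 37 of the 94 members (39.4%), against 12.3% of all genes. It held 14.3% of the members' sum of squares, against 10.1% over all genes, and lay more than 2 log2 from its group mean in 40 members, 15 above and 25 below. Its median distance from the group mean was 1.91 log2 over the members and 0.14 log2 over all genes, the largest of any bird in both. The members were chosen by the size of these same deviations, which favours genes in which such a bird lies far from its group. Without this bird 25 of the 94 fell below the limit, so the shares of members here are descriptions only. Non-migratory coastal replicate 2, a male taken on 7 August at 2.5 hours, was farthest in 14 members (14.9%, against 4.76% of all genes) and held 11.3% of the sum of squares. Each of the remaining 17 birds was farthest in at most 7 members. The 3 females were farthest in 3, 2 and 2 members (3.19%, 2.13% and 2.13%), fewer than over all genes (8.99%, 7.26% and 7.82%).

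**Figure D2:**
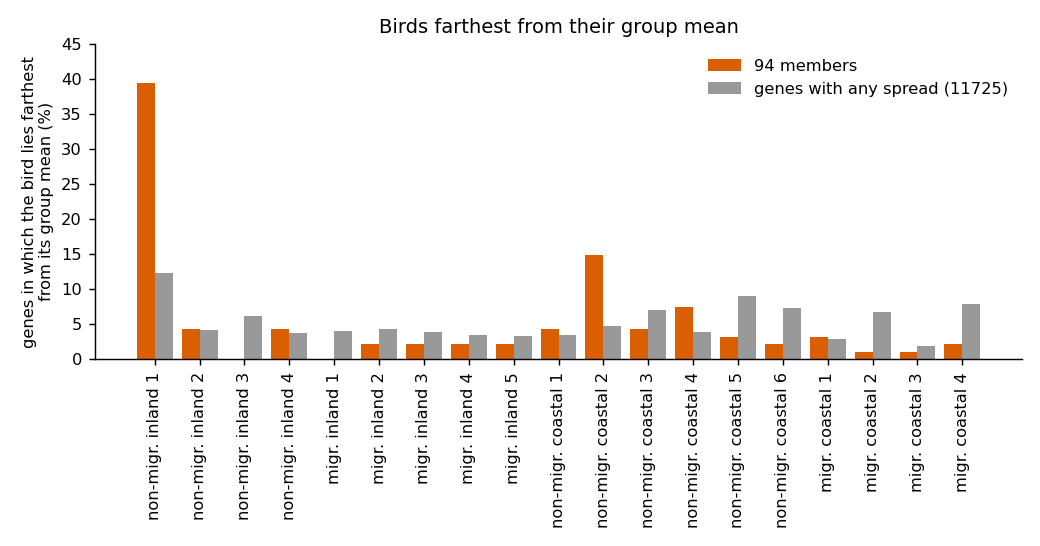
Percentage of genes in which each bird lies farthest from its group mean, for the 94 members (orange) and for all genes with any spread (grey). Non-migratory inland replicate 1 reaches 39.4% of members and non-migratory coastal replicate 2 reaches 14.9%, whereas no other bird exceeds 7.45%.

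The spread was present in every group, and largest in the group that holds this bird. Over the members, the within-group SD had a median of 1.65 log2 in non-migratory inland birds, 0.96 in migratory inland, 1.27 in non-migratory coastal and 1.22 in migratory coastal birds. The submitters had set aside 1 more migratory inland bird because its expression stood apart, so that group's spread is that of the birds kept. Without replicate 1 the non-migratory inland median was 0.83. The other groups kept their own extreme birds, and 25 of the 94 members fell below the limit without replicate 1. The value of 0.83 is therefore not ranked against the other groups. With non-migratory inland replicate 1 left out of the whole table, 72 genes exceeded 1 log2, 69 of them among the 94. With non-migratory coastal replicate 2 left out, 88 did, 84 of them among the 94.

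Members varied together more often than genes in general. Of the 4371 pairs of members, 14.9% had a correlation of their deviations above 0.5 and 9.38% below -0.5, against 4.40% and 4.17% of all pairs of genes; above 0.9 lay 77 pairs (1.76%, against 0.0129%). The first 3 principal components of the deviations held 29.8%, 22.0% and 13.6% of the members' variance, against 19.6%, 12.3% and 9.36% over all genes. These correlations are over 19 deviations that sum to 0 within each group, share the same libraries, and are weighted to the birds at the extremes, and they are given as descriptions. Joining members by average correlation at 0.5 or more gave 4 clusters of at least 5 members, of 23, 18, 10 and 8 genes, and left 35 members in none. The clusters were built from the values they describe, so their own coherence is no finding.

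**Figure D3:**
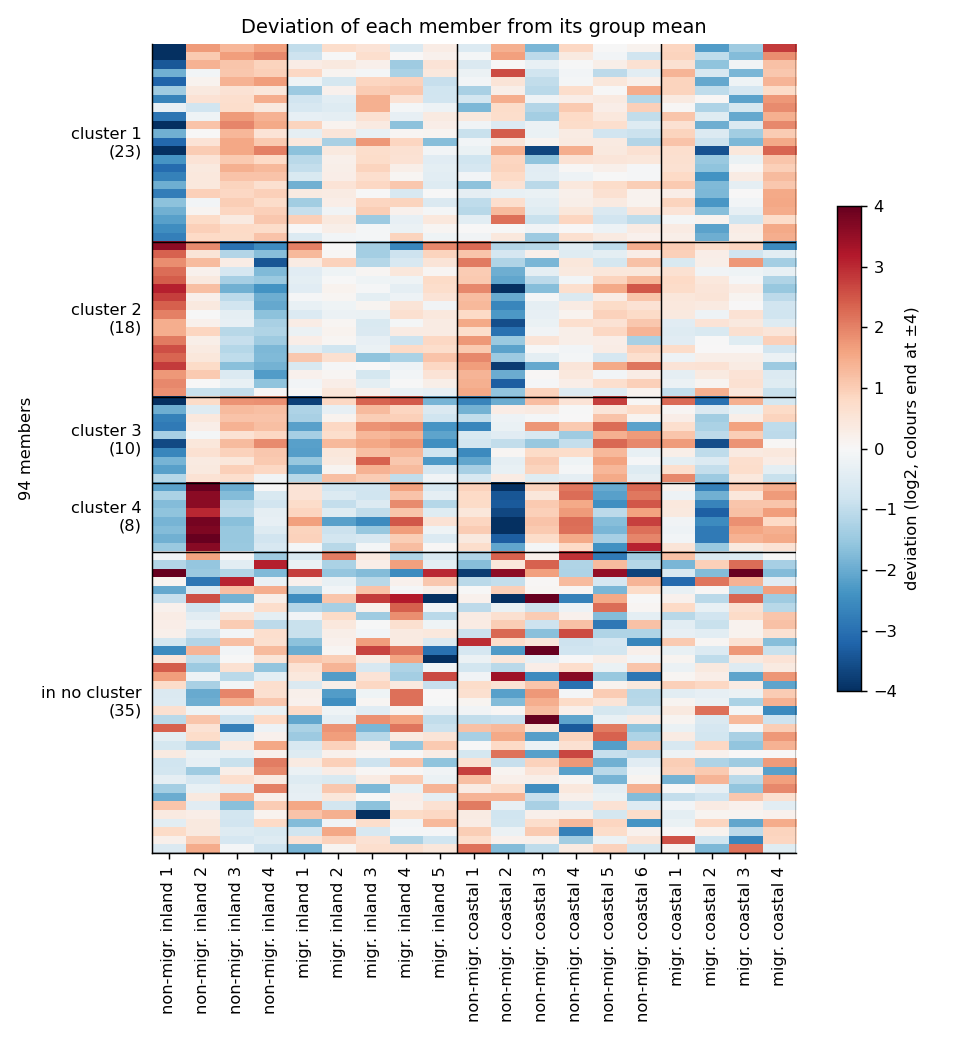
Deviation of each of the 94 members (rows) from its group mean in each of the 19 birds (columns), in log2, with red above and blue below the mean; black lines separate clusters and groups. The 23-gene cluster is blue and the 18-gene cluster red in non-migratory inland replicate 1, and the 8-gene cluster is red in non-migratory inland replicate 2 and blue in non-migratory coastal replicate 2.

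The 8-gene cluster was the tightest. Its pairs had a median correlation of 0.957, which stayed at 0.946 or more whichever bird was left out, and the same 8 genes stayed in 1 cluster under each alternative and each bird left out. Its genes had SDs of 1.72 to 2.53 log2, and 6 of the 8 were in the lowest 10% of mean levels. ENSFALG00000001948 and ENSFALG00000008413 lay closest to its mean. ENSFALG00000008413 stood at 25.05, 30.53, 25.26 and 26.27 log2 in the non-migratory inland birds, and at 24.94, 23.19, 22.52, 25.73 and 23.86 in the migratory inland birds. It stood at 27.74, 25.13, 29.54 and 29.38 in the migratory coastal birds, and ran from 22.62 to 29.53 with a median of 28.35 in the non-migratory coastal birds. ENSFALG00000001948 stood at 23.22, 29.45, 23.35 and 25.36 in the non-migratory inland birds, and ran from 22.17 to 24.53 in migratory inland, 22.09 to 28.59 in non-migratory coastal and 23.85 to 27.99 in migratory coastal birds.

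In both genes non-migratory inland replicate 2 was the highest bird of all, and non-migratory coastal replicate 2 and the migratory inland birds 2 and 3 were the lowest. Averaged over the 8 genes, non-migratory inland replicate 2 lay 3.72 log2 above its group mean and non-migratory coastal replicate 2 lay at -3.74. In migratory coastal replicate 2 the mean deviation was -2.52, in non-migratory coastal replicate 5 it was -1.87, and in non-migratory coastal replicate 6 it was 2.30. In 14 of the 19 birds all 8 genes lay on the same side of the group mean. Only 2 genes outside the members had a correlation above 0.8 with the cluster's mean deviation (4 without non-migratory inland replicate 1).

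The 23-gene cluster turned on non-migratory inland replicate 1, in which all 23 genes lay below the group mean, by a mean deviation of -2.75 log2. Migratory coastal replicate 2 was low as well (-1.48), and migratory coastal replicate 4 (1.46) and non-migratory inland replicates 3 and 4 (1.12 and 1.11) were high. In ENSFALG00000000217, closest to its mean, the non-migratory inland birds stood at 24.72, 31.10, 30.72 and 31.03 log2. The migratory inland birds stood at 29.82, 31.49, 31.33, 30.21 and 31.09, the migratory coastal birds at 30.16, 27.05, 27.88 and 32.09, and the non-migratory coastal birds between 27.88 and 31.14 with a median of 29.78. In ENSFALG00000010250, next closest, non-migratory inland replicate 1 stood at 22.35 and migratory coastal replicate 2 at 23.52, and the other 17 birds between 25.16 and 27.04. Both genes were lowest in non-migratory inland replicate 1 and next lowest in migratory coastal replicate 2.

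Not all of this cluster was weakly expressed. Its mean levels ran from 24.11 to 32.07 log2, and 11 of the 23 were in the lowest 10%. ENSFALG00000000220, named after its values were seen, had the highest mean level of all members. It ranked between 34 and 605 among the genes of the same bird in 16 birds, 1647 and 3060 in migratory coastal replicates 2 and 3, and 7563 in non-migratory inland replicate 1. Outside the members, 106 genes had a correlation above 0.8 with the cluster's mean deviation and 56 below -0.8; without non-migratory inland replicate 1 the first count was 46. Without that bird the median correlation within the cluster was 0.61, against 0.72 with it, and the largest group of its genes that still joined numbered 12 of 23.

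The 18-gene cluster moved the other way in the same bird. In non-migratory inland replicate 1 all 18 genes lay above the group mean, by 2.27 log2 on average, whereas non-migratory coastal replicate 2 had all 18 below (-2.29). In non-migratory inland replicate 4 the mean deviation was -1.78, and in non-migratory coastal replicate 1 it was 1.43. ENSFALG00000006204 stood at 31.74, 29.83, 26.71 and 26.23 log2 in the non-migratory inland birds, and at 29.59, 30.18, 29.99, 29.68 and 30.74 in the migratory inland birds. It stood at 29.28, 29.04, 28.85 and 27.05 in the migratory coastal birds, and ran from 23.32 to 30.73 with a median of 29.33 in the non-migratory coastal birds. It was thus steady in the migratory inland birds and spread over several log2 in the non-migratory groups. ENSFALG00000006274, closest to the cluster's mean, ranged from 21.89 (non-migratory coastal replicate 2) to 27.04 (non-migratory inland replicate 1). The median correlation within this cluster was 0.75, and 0.70 without non-migratory inland replicate 1, where 16 of its 18 genes still joined.

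The mean deviations of the 23-gene and the 18-gene clusters had a correlation of -0.72 over the 19 birds, and of -0.58 without non-migratory inland replicate 1. For the 8-gene cluster the correlation was 0.14 with the 23-gene and 0.29 with the 18-gene cluster. Without that bird these correlations were -0.01 and 0.49. The first and second patterns were thus partly opposed in the same birds. The 8-gene cluster had little correlation with the 23-gene cluster in either case, whereas its correlation with the 18-gene cluster depended on that bird.

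The 10-gene cluster shared low birds with the 23-gene cluster, non-migratory inland replicate 1 and migratory coastal replicate 2 among them. All 10 genes lay below the group mean in non-migratory inland replicate 1 (mean deviation -2.46), migratory inland replicates 1 and 5 (-1.88 and -1.41), non-migratory coastal replicate 1 (-1.61) and migratory coastal replicate 2 (-1.48). The highest birds were non-migratory coastal replicate 5 (1.61) and migratory inland replicate 3 (1.52). ENSFALG00000002915, closest to its mean, stood at 23.62, 28.76, 29.81 and 29.85 log2 in the non-migratory inland birds. It stood at 24.28, 28.86, 30.34, 30.48 and 26.15 in the migratory inland birds, at 28.78, 23.51, 27.93 and 25.81 in the migratory coastal birds, and between 24.18 and 29.61 with a median of 27.14 in the non-migratory coastal birds. Each group held birds near 24 log2 and birds above 28. ENSFALG00000014011, next closest, ran from 27.51 to 31.38 with the same birds at its low end. Of the 10 genes, 5 were in the lowest 10% of mean levels. The median correlation within the cluster was 0.77 (0.73 without non-migratory inland replicate 1), and with the mean deviation of the 23-gene cluster it had a correlation of 0.62 (0.46 without that bird).

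**Figure D4:**
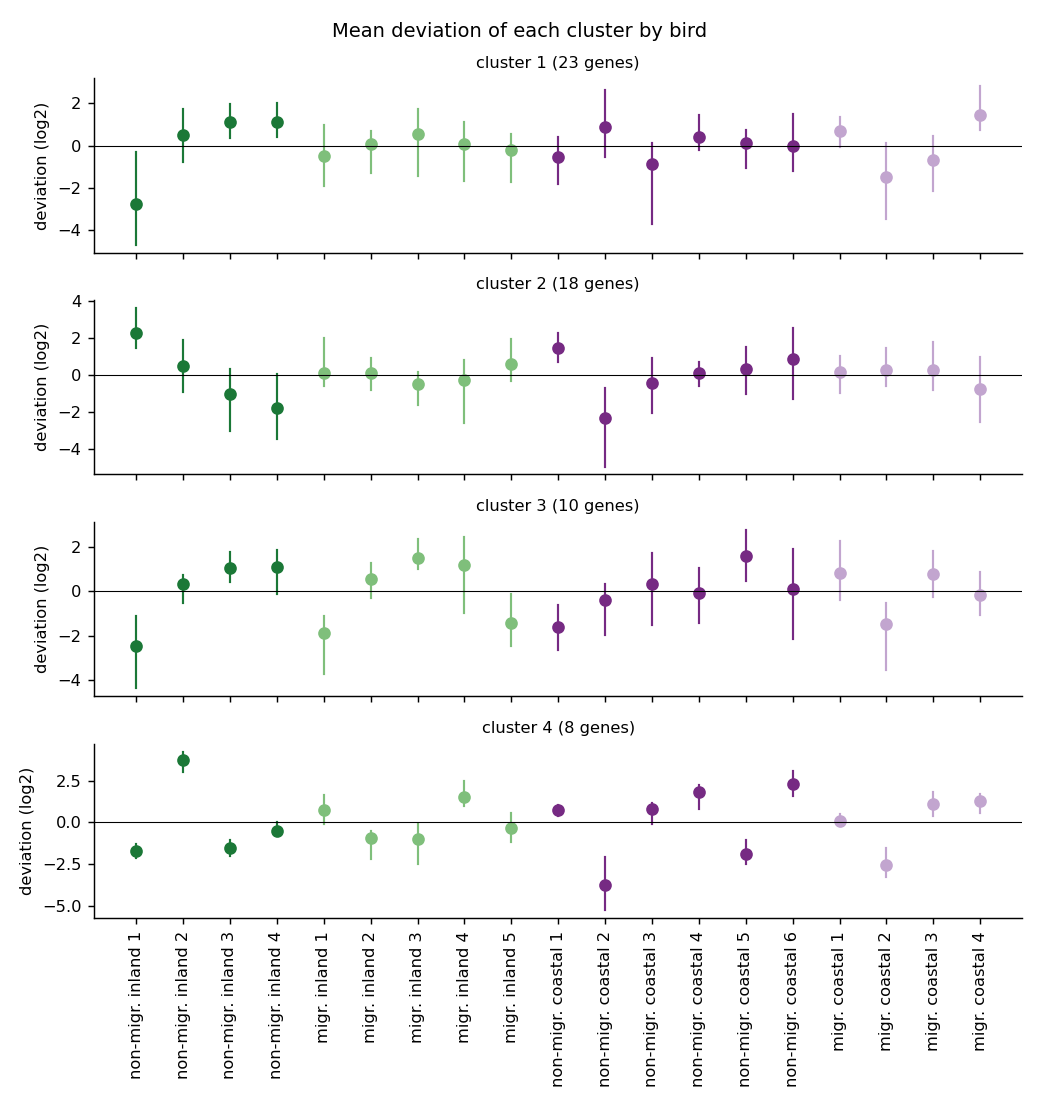
Mean deviation from the group mean (points, log2) and the range over the genes of the cluster (lines) in each bird, for the 4 clusters; colours mark the 4 groups. Non-migratory inland replicate 1 lies at -2.75 in cluster 1 (23 genes), 2.27 in cluster 2 (18 genes) and -2.46 in cluster 3 (10 genes), and non-migratory inland replicate 2 at 3.72 in cluster 4 (8 genes).

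In each inland group replicate 1 was the only bird taken on 7 August and also the latest in the day, at 6.53 hours (non-migratory) and 7.65 hours (migratory). Both lay lowest of their group in the 23-gene and the 10-gene clusters. In the 10-gene cluster the lowest non-migratory coastal bird, replicate 1, was also of 7 August but taken at 4.2 hours, and the lowest migratory coastal bird, replicate 2, was taken on 3 October at 7.07 hours. Non-migratory coastal replicates 2 and 3, also of 7 August, lay at -0.39 and 0.34 in that cluster. In the 23-gene cluster non-migratory coastal replicates 3 and 1, of 7 August, were the lowest of their group (-0.87 and -0.55). Replicate 2, of the same date, was its highest (0.89). For these inland birds, day and hour cannot be told apart. Non-migratory coastal replicate 2 shared its date with replicates 1 and 3 of its group, and in the 8-gene cluster it lay at -3.74 where they lay at 0.74 and 0.78.

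Links to the hour were then read from a slope fitted to all genes with limma, with group and sex in the model. Hour, like day and sex, varied within the groups, so the choice of members used this variation and the counts below support nothing. The slope was negative in all 23 genes of the 23-gene cluster (median -0.20 log2 per hour) and all 10 of the 10-gene cluster (-0.29), and positive in all 8 of the 8-gene cluster (0.34) and 16 of the 18-gene cluster (0.10). In the 23-gene cluster the latest birds of the migratory coastal group lay at opposite ends. Replicate 2 (7.07 hours, male) was at -1.48 log2 and replicate 4 (8.57 hours, female) at 1.46. Over all 94 members the slope was negative in 50. Its unadjusted p was under 0.05 in 11 members (11.7%), close to the 10.0% of all genes. It passed an adjusted p of 0.05 in 1 member (1.06%), against 0.0938% of all genes. That member was ENSFALG00000015235, in the 10-gene cluster, at -0.45 ± 0.07 log2 per hour (SE). It stood at 25.21, 26.92, 27.03 and 26.21 log2 in the non-migratory inland birds and at 28.20, 24.82, 26.70 and 25.39 in the migratory coastal birds, where the birds at 28.20 and 26.70 were the early ones (2.7 and 2.52 hours). The call was lost when either non-migratory coastal replicate 5 or replicate 2 of the migratory coastal birds was left out. It was lost too with no sex term, in males only, and with both birds of unusual month (migratory in August, non-migratory in October) left out.

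The 4 dates of collection, added to the model as a factor, gave no member and 0% of all genes at an adjusted p of 0.05 (limma). At an unadjusted p under 0.05 there were 7 members (7.45%), against 7.42% of all genes. The smallest values belonged to ENSFALG00000014987, which ran from 22.23 to 27.37 log2, and ENSFALG00000012527, a gene of the 10-gene cluster, low in non-migratory inland replicate 1 (22.30), migratory inland replicate 1 (22.84) and non-migratory coastal replicate 1 (22.09), all of 7 August. The next lowest was migratory coastal replicate 2 (23.00), taken on 3 October, and non-migratory coastal replicates 2 and 3, of 7 August, stood at 24.71 and 25.40. The low values of ENSFALG00000012527 lay near the bottom of the table, where it had a median rank of 11540 among 11727 genes.

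For sex, 4 members (4.26%) had an unadjusted p under 0.05 (limma), against 13.4% of all genes. After adjustment 1 member was called (1.06%), lower in females, against 3.83% of all genes. ENSFALG00000007022 stood at 28.81, 28.88 and 28.52 log2 in the 3 females and between 29.36 and 33.27 in the 7 coastal males, which did not overlap them. The 9 inland males ran from 28.42 to 29.87 and overlapped the females. The call was lost in 13 of 19 cases when 1 bird was left out. The 23-gene cluster had 20 genes with a higher and 3 with a lower estimate in females (median 0.96 log2), and the 8-gene cluster had all 8 higher (0.85), none of them called. The 3 females did not move together from their group means. In the 8-gene cluster non-migratory coastal replicates 5 and 6 lay at -1.87 and 2.30, and migratory coastal replicate 4 at 1.29. In the 23-gene cluster the same birds lay at 0.11, -0.01 and 1.46. As a whole, 63 of the 94 members had a higher estimate in females, but among the 35 in no cluster 15 were higher and 20 lower. The share over all genes was not taken, so no bias of the members is read from this count.

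The remaining comparisons, between groups, used differences of group means, which the choice of members did not use. The sex term, however, shifts these differences by the contrast of females and males within the coastal groups. The choice did use that variation, so the fitted estimates and calls are not fully independent of it. It also guarantees a large error: the standard error of the status difference had a median of 0.54 log2 over the members and 0.08 over all genes. The first comparison asked whether members differed between migratory and non-migratory birds. No member was called, as in 0% of all genes (limma, smallest adjusted p among members 0.50), and 2 members (2.13%) had an unadjusted p under 0.05, against 8.19% of all genes. ENSFALG00000007022 was higher in migratory birds by 0.88 ± 0.33 log2 (SE, 95% interval 0.18 to 1.59). ENSFALG00000005970, described above, differed by -2.37 ± 0.96 log2 (SE, 95% interval -4.41 to -0.33). All 18 genes of the 18-gene cluster had a positive status estimate (median 0.35 log2) and all 8 of the 8-gene cluster a negative one (median -0.81), none with an unadjusted p under 0.05. The estimate for the 8-gene cluster averages unlike ecotypes. Inland, its mean level was lower in migratory than in non-migratory birds (22.95 against 25.15 log2). On the coast it was not (26.68 against 26.14). The genes of a cluster vary together, so a shared sign is not a separate result for each gene. Of the birds whose status and month disagreed, migratory inland replicate 1 deviated by 0.76 log2 over the 8 genes, and non-migratory coastal replicate 6 by 2.30, the highest of its group.

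Inland and coastal birds differed in 3 members (3.19%), against 5.94% of all genes, with 1 higher and 2 lower in inland birds (limma). At an unadjusted p under 0.05 there were 18 members (19.1%), against 21.1% of all genes. ENSFALG00000007022 was lower in inland birds, at 29.32, 28.51, 28.47 and 28.42 log2 in the non-migratory and 29.87, 28.89, 28.62, 29.19 and 28.73 in the migratory inland birds. It stood at 31.46, 33.27, 30.99 and 28.52 in the migratory coastal birds and between 28.81 and 30.75, with a median of 29.46, in the non-migratory coastal birds. The inland and coastal ranges overlapped, also among males (inland males 28.42 to 29.87, coastal males 29.36 to 33.27). With the sex term the difference was -1.96 ± 0.36 log2 (SE, 3.88-fold, limma adjusted p = 0.0039). Leaving out each of the 19 birds in turn never ended the call, with estimates from -2.09 to -1.57 log2.

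ENSFALG00000008633 was also lower in inland birds, at 22.84, 22.17, 23.83 and 25.48 log2 in the non-migratory and 22.23, 22.78, 22.52, 22.52 and 22.35 in the migratory inland birds. The migratory coastal birds stood at 25.80, 25.94, 25.07 and 22.71, and the non-migratory coastal birds between 22.48 and 27.38 with a median of 24.66. The 5 migratory inland birds lay close together at the low end and the other groups were spread, with a difference of -2.22 ± 0.57 log2 (SE, limma adjusted p = 0.029). These low values lay near the bottom of the table, where the gene had a median rank of 11704 among 11727 genes. The closeness of the low birds and the size of the difference therefore depend on where such low values lie. ENSFALG00000003220, of the 23-gene cluster, was higher in inland birds by 1.55 ± 0.43 log2 (SE, limma adjusted p = 0.040). Its inland birds ran from 24.95 to 27.03 and its coastal birds from 23.12 to 26.25, with overlap. This gene was weak too, with a median rank of 11022 among 11727 genes, so its difference also depends on where low values lie. Leaving out 1 bird at a time ended its call in 10 of 19 cases and that of ENSFALG00000008633 in 4 (replicates 1 and 2 of the migratory coastal birds, replicate 3 of the non-migratory coastal and replicate 2 of the non-migratory inland birds). With no sex term none of the 3 was called.

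**Figure D5:**
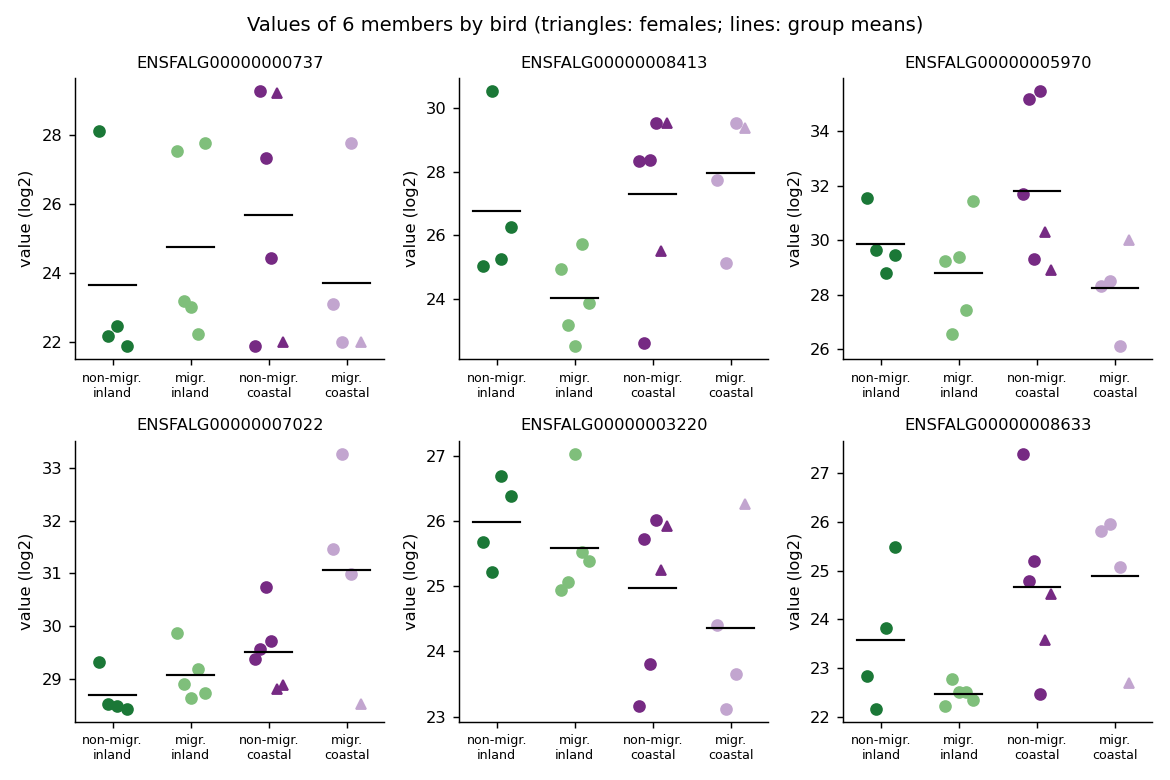
Values (log2) of 6 members in each bird by group; circles are males, triangles females and lines group means. ENSFALG00000000737 shows a low set of birds, near the bottom of the table, and a high set in every group. ENSFALG00000007022 shows the coastal males above the coastal females (28.52 to 28.88).

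The count of ecotype differences depended on non-migratory inland replicate 1. Without it, 11 members were called (11.7%), against 6.64% of all genes, with 9 higher and 2 lower in inland birds (limma). Of these 9, 8 were in the 23-gene cluster and 1 in the 10-gene cluster. This bird's deviations helped to choose the members, 25 of which fall below the limit without it, and all 23 genes of that cluster were low in it. Leaving it out therefore raises their inland means and lowers their error by construction, and nothing is read from this count. In the fit with all birds 22 of the 23 genes of that cluster had a higher estimate in inland birds (median 0.99 log2), and 7 had an unadjusted p under 0.05 (limma). Over all genes 21.1% had an unadjusted p under 0.05. The genes of a cluster vary together over the same birds, so counts within this or the 8-gene cluster are not separate results for each gene. All 8 genes of the 8-gene cluster had a lower estimate in inland birds (median -2.05 log2, from -2.79 to -1.95) and 6 had an unadjusted p under 0.05, but none was called (smallest adjusted p = 0.17). Its mean level was 22.95 ± 1.10 log2 (SD, n = 5) in migratory inland, 25.15 ± 2.54 (n = 4) in non-migratory inland, 26.14 ± 2.33 (n = 6) in non-migratory coastal and 26.68 ± 1.76 (n = 4) in migratory coastal birds. The highest migratory inland bird averaged 24.47 and the lowest non-migratory coastal bird 22.40, so these groups overlapped. The 6 genes of this cluster in the lowest 10% of mean levels had median ranks from 11593 to 11720 among 11727 genes. The size of their inland difference and the closeness of the migratory inland birds therefore depend on where such low values lie.

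The status difference was lastly compared between ecotypes. No member was called, and 0% of all genes (limma, smallest adjusted p among members 0.44), while 2 members (2.13%) had an unadjusted p under 0.05 against 8.95% of all genes. ENSFALG00000014298 had the smallest p, with a status effect 2.80 ± 0.87 log2 (SE) higher in inland than in coastal birds. Its means were 25.44 ± 0.32 (SD, n = 5) and 23.92 ± 1.30 (SD, n = 4) in migratory and non-migratory inland birds, and 23.64 ± 1.14 (SD, n = 4) and 24.87 ± 1.10 (SD, n = 6) in the coastal birds. This gene was weak, with a median rank of 11369 among 11727 genes, so these values depend on where low values lie. ENSFALG00000015143 followed at 1.89 ± 0.88 log2 (SE), with low values in non-migratory inland replicate 1 (25.43) and migratory coastal replicate 2 (25.27) against at least 27.72 in the other 17 birds. The standard error of this comparison had a median of 1.08 log2 over the members, so differences of a few-fold between ecotypes were not detectable in most of them.

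The 35 members in no cluster were mostly weak. Their SD had a median of 1.28 log2, and 26 of them were in the lowest 10% of mean levels. The farthest bird was non-migratory inland replicate 1 in 4 of them, against 17 of the 23-gene, 9 of the 18-gene, 7 of the 10-gene and none of the 8-gene cluster. ENSFALG00000000737, ENSFALG00000002901 and ENSFALG00000005970 are among them, as are ENSFALG00000007022 and ENSFALG00000008633.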

How the data were processed

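The authors deposited 1 table of 11727 genes by 19 birds. The name of the deposited table gives exon counts of protein-coding genes and trimmed-mean (TMM) normalization. The deposited values are on a log scale of unstated base, taken here as log2. The columns hold nearly the same values in different orders (sorted columns differ at a typical rank by 0.00216). Scaling each library by 1 factor, as TMM does, would not by itself give such columns. Depth and differences in total RNA are therefore lost, and each value only places a gene among the others in that bird. Per the submitters' processing notes, Trim Galore 0.3.1, TopHat2 and HTSeq were used; the genome build is not given in the sources used here. Per the labels' protocols, libraries were made with a TruSeq kit, which does not mark strand, so overlapping antisense genes cannot be told apart.

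Birds were grouped by the labels; the deposited column names gave the same groups. Members, lists and tests were chosen with earlier results of these data known. Clusters came from average linkage on 1 minus Pearson's correlation, cut at 0.5. Comparisons were fitted to all 11727 genes with limma 3.58.1 in R 4.3.3 (a mean per group and a sex term, trend and robust settings, Benjamini-Hochberg adjustment over all genes, calls under 0.05). The procedure was run on simulated data with independent noise in each gene. Those data lacked the co-variation and the extreme birds of the members, so the run does not bear on calls among them. Standard errors and intervals are those of the moderated fit. The sex, hour and date terms are descriptions. No filter or pseudocount was used. Named genes are those with the 2 largest SDs, the 2 on each side of the limit, the 2 closest to each cluster's mean, the 2 with the largest share in 1 bird, and up to 2 per direction with the smallest p in each comparison; others are marked. Python 3.11.15 with pandas 2.3.3 and scipy 1.17.1 gave the remaining values.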

Additional observations from a re-analysis of the deposited data

Results flagged for a closer look

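Within the 4 groups, 100 sets of values were examined, from 21 named genes and 4 cluster means. Dixon's criterion was used to find a bird far from the rest of its group, and 12 such values were found. About 1 in 20 unselected, independent sets, or 5 of 100, would pass by chance, but these sets were neither unselected nor independent. The members were chosen for large spread, and some of these genes were named for a large share in 1 bird. Each cluster mean also holds the deviations of the genes named as closest to it. The count of 12 is therefore not compared with 5. Non-migratory inland replicate 1 gave 6 of the 12. It lay above its group in ENSFALG00000000737 (28.11 log2, the others at most 22.48) and ENSFALG00000007022 (29.32, the others at most 28.51). It lay below it in ENSFALG00000000217 (24.72, the others at least 30.72), ENSFALG00000015143 (25.43, at least 28.65) and ENSFALG00000012527 (22.30, at least 25.49), and in the mean deviation of the 23-gene cluster (-2.75, at least 0.53).

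Migratory inland replicate 3 stood apart at 24.33 in ENSFALG00000011675 (the others at least 29.26) and at 27.03 in ENSFALG00000003220 (the others at most 25.52). Migratory inland replicate 5 stood at 22.35 in ENSFALG00000004963 (the others at least 26.69). Among the migratory coastal birds, replicate 1 stood at 29.17 in ENSFALG00000011675 (the others at least 29.68), replicate 2 at 23.00 in ENSFALG00000012527 (the others at least 24.25), and replicate 4, the female of that group, at -0.74 in the mean deviation of the 18-gene cluster (the others at least 0.16).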

How the results depend on the processing

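The 94 members were 94 genes with sex removed from the deviations (91 shared), 43 by the median absolute deviation (40 shared), 175 above 0.8 log2, 58 above 1.2 log2 and 38 with the lowest 10% of mean levels left out; leaving out each bird gave 72 to 100 genes. The number of members in clusters, 59, lay between 52 and 65 under the other cuts, linkage, rank correlation and sex removal, and between 55 and 66 leaving out each bird. The clusters themselves were less stable: complete linkage gave 7, with at most 12 of the 23, 11 of the 18 and 5 of the 10 genes still together, and leaving out each bird gave 3 to 6 (6, with 12 of the 23 together, without non-migratory inland replicate 1). Non-migratory inland replicate 1 was the farthest bird in 38 members with sex removed. The 3 ecotype calls among the members became 0 with no sex term, 5 with the month of collection added, 7 with birds weighted by their fit and 5 with both birds of unusual month (migratory in August, non-migratory in October) left out. Leaving out each bird gave 1 to 11: 11 without non-migratory inland replicate 1, 5 without migratory inland replicate 1, and 1 without non-migratory coastal replicate 3, likewise without replicate 2 of the migratory coastal birds. The single sex call became 0 with the month added and without that pair, and 0 to 1 leaving out each bird; the single hour call became 0 with no sex term and without that pair, and 0 to 1 leaving out each bird. In males only the 1 hour call was a different gene, ENSFALG00000007022. The causes were not tested. Calls for status, for the difference between ecotypes and for date stayed at 0 among the members in every fit run. No paired analysis was possible because the replicate numbers follow the order of the samples and the labels pair no birds. Depth is unknown, and 56 members are in the lowest 10% of levels, where counting error is largest in general; its part in their spread was not tested.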
